A study of Saccharomyces cerevisiae with 18 samples.

Results

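Fatty acid synthesis and activation in yeast was followed through 10 genes, ACC1, FAS1, FAS2, OLE1, ELO1, ELO2, ELO3, FAA1, FAA4 and ACB1. They were chosen by name from the pathway, with earlier results of these data known, out of 6713 open reading frames in the count table. Saccharomyces cerevisiae cells gave 9 lysates, and each lysate gave an RNA-Seq and a Ribo-Seq library, 18 in all. The strains share the background of BY4741, a common laboratory haploid of mating type a with his3Δ1, leu2Δ0, met15Δ0 and ura3Δ0. Cells were collected in exponential growth after a short exposure to cycloheximide, which stops elongating ribosomes. The strains were wt, Δtma20 and Δtma64, which each lack 1 gene, and ΔΔtma20tma64, which lacks both, with drug resistance cassettes in place of the deleted genes. The rich medium YPD held yeast extract, peptone and glucose. The minimal medium SD held glucose and yeast nitrogen base without amino acids. According to the study's methods SD was also supplemented with amino acids, while the sample labels name no supplement. In YPD there were 2 wt lysates, named WT1 and WT2. The remaining combinations of strain and medium had 1 lysate each, so that 5 lysates were from YPD and 4 from SD. Lysates of different strains therefore serve as the replicates of a medium. Tma20 and Tma64 are translation factors that help to clear the small ribosomal subunit from mRNA after termination.

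RNA-Seq measured mRNA selected on oligo(dT) beads, and Ribo-Seq measured footprints, the stretches of mRNA left under ribosomes after ribonuclease I. The RNA-Seq libraries held 5608491 to 11388027 counts on open reading frames and the Ribo-Seq libraries 1668588 to 23532664. The shallowest Ribo-Seq libraries were those of Δtma20 in SD (1668588 counts) and wt in SD (2337313 counts). TMA20 had at most 16 counts in each library of the strains that lack it and at least 286 in each of the others, and TMA64 had at most 7 against at least 133. Reads on no annotated feature differed between the media in RNA-Seq, with 18.8% to 23.6% of uniquely mapped reads in YPD and 28.3% to 39.1% in SD, and whether this share bears on the differences between media was not tested. Levels are given as CPM, counts scaled to the normalized size of their library, and so relative to the other mRNAs or footprints, and a change in the total amount of RNA per cell would not be seen.

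In yeast, fatty acids are made in the cytosol. Acetyl-CoA carboxylase (Acc1) makes malonyl-CoA from acetyl-CoA, and the fatty acid synthase, a large complex of Fas1 (beta) and Fas2 (alpha) subunits in equal number, condenses these units into palmitoyl- and stearoyl-CoA. The desaturase Ole1 introduces the double bond of palmitoleic and oleic acid in the endoplasmic reticulum, and the elongases Elo1, Elo2 and Elo3 extend acyl chains, Elo1 from medium-length chains and Elo2 and Elo3 to the very long chains of sphingolipids. Faa1 and Faa4 attach CoA to free fatty acids, and the small protein Acb1 binds and carries acyl-CoA. Transcription of many of these genes is known to respond to inositol through the activators Ino2 and Ino4 and the repressor Opi1, and that of OLE1 to fatty acids and oxygen through Mga2 and Spt23.

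All 10 genes have 1 coding exon in the R64 assembly, and no other annotated gene overlaps their coding sequences. ACC1 (YNR016C) lies at chrXIV:654673-661374 on the minus strand, FAS1 (YKL182W) at chrXI:100671-106826 on the plus strand and FAS2 (YPL231W) at chrXVI:108652-114315 on the plus strand. OLE1 (YGL055W) lies at chrVII:398628-400160 on the plus strand. ELO1 (YJL196C) lies at chrX:67850-68782 on the minus strand, ELO2 (YCR034W) at chrIII:190592-191635 on the plus strand and ELO3 (YLR372W) at chrXII:867354-868391 on the plus strand. FAA1 (YOR317W) lies at chrXV:909343-911445 and FAA4 (YMR246W) at chrXIII:759807-761891, both on the plus strand, and ACB1 (YGR037C) at chrVII:559731-559994 on the minus strand. Coding lengths run from 264 nt for ACB1 to 6702 nt for ACC1. In 9 of the genes every 28 nt window of the coding sequence, about the length of a footprint, occurs once in the genome, and in FAA4 99.6% of the windows do, so few reads can have been lost as multimapping.

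The 500 nt before each start codon were searched for CATGTGAA, the core of the inositol-sensitive element that Ino2-Ino4 binds, and for CGGGTAA, a site of the general factor Reb1, on both strands. The stretches that hold the first motif are shown because this element is the known link of inositol to genes of the pathway, with the match in capitals and the plus strand of the R64 assembly written 5′ to 3′.
FAS2, chrXVI:108407-108436: tctcccgcgttTTCACATGctacctcattc
FAA1, chrXV:908933-908962: atgatctccgcCATGTGAAtatttatgcat
ELO2, chrIII:190412-190441: ttttgtacgtaTTCACATGtcctggcgtgc
The matches begin 234, 399 and 169 nt before the start codons. This motif was found upstream of 86 of 5992 genes searched in the same way, 1.44%. The Reb1 letters were found upstream of FAS2, ELO1 and ACB1, at 296, 160 and 432 nt, and upstream of 10.1% of all genes.
FAS2, chrXVI:108345-108373: tacattgggcaTTACCCGcaaactaaccc
ELO1, chrX:68925-68953: agggtcttggcTTACCCGcgtcggcttta
ACB1, chrVII:560409-560437: ccgatagttgtCGGGTAAcggctttgagt
The capitals mark CGGGTAA or its reverse complement TTACCCG on the plus strand, and the motifs in FAS2 do not overlap. A match describes these letters only. The other genes held no exact match in these windows.

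Levels of different genes were compared per kb of coding sequence within each medium, as mean CPM per kb ± SD over the 5 YPD or the 4 SD lysates. In RNA-Seq ACB1 was highest in both, with 1074 ± 60.9 in YPD and 1232 ± 39.8 in SD. ELO1 (512 ± 94.2 in YPD, 367 ± 44.4 in SD) and ELO3 (416 ± 22.9 and 416 ± 36.3) followed, and their ranges over lysates overlapped in each medium. The order of the other mRNAs depended on the medium. In YPD ELO2 (247 ± 13.4) and OLE1 (240.4 ± 41.6) came next and overlapped, then FAS2 (179 ± 14.3), FAS1 (167 ± 14.4), FAA4 (160.3 ± 13.6) and FAA1 (158 ± 18.3), which overlapped one another, and ACC1 was lowest (106 ± 5.25) and apart from all others. OLE1, at 189.8 in WT1, also overlapped FAS2 (192.4 in WT1) and FAS1 (191.8 in Δtma64). In SD FAS2 (282 ± 8.37) and ELO2 (274 ± 25.5) overlapped, FAS1 followed (220.0 ± 11.03), and OLE1 (166 ± 17.9), ACC1 (149.7 ± 5.65), FAA1 (144 ± 7.38) and FAA4 (137 ± 10.7) overlapped at the lower end.

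In Ribo-Seq ACB1 was again highest, with 1589 ± 71.4 CPM per kb in YPD and 1459 ± 99.5 in SD. The paper cites stronger footprint signals at sites of initiation when cycloheximide is added before harvest. ACB1 has the shortest coding sequence, 264 nt, and whether this raised its footprints per kb was not tested. FAS1 (387 ± 41.2) and FAS2 (378 ± 34.6) came next in YPD and overlapped, followed by ELO3, OLE1, ACC1, ELO1 and FAA1 with means of 239 to 285, among which ACC1 had 267 ± 30.3. OLE1, at 331.4 in Δtma64, also overlapped FAS1 and FAS2, which were at 318.3 and 319.1 in ΔΔtma20tma64. In SD FAS2 (621 ± 19.0), FAS1 (544 ± 25.1) and ACC1 (418 ± 34.1) stood next to ACB1 without overlap among them, and FAA1 (311 ± 52.5) overlapped ACC1. FAA4 and ELO2 had the lowest mean in both media, between 187 and 215, with overlapping ranges. Translation efficiency, the ratio of Ribo-Seq CPM to RNA-Seq CPM of a lysate, was at least 1.66 in every lysate for ACC1, FAS1 and FAS2 and at most 0.912 in every lysate for ELO1, ELO2 and ELO3.

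**Figure D1:**
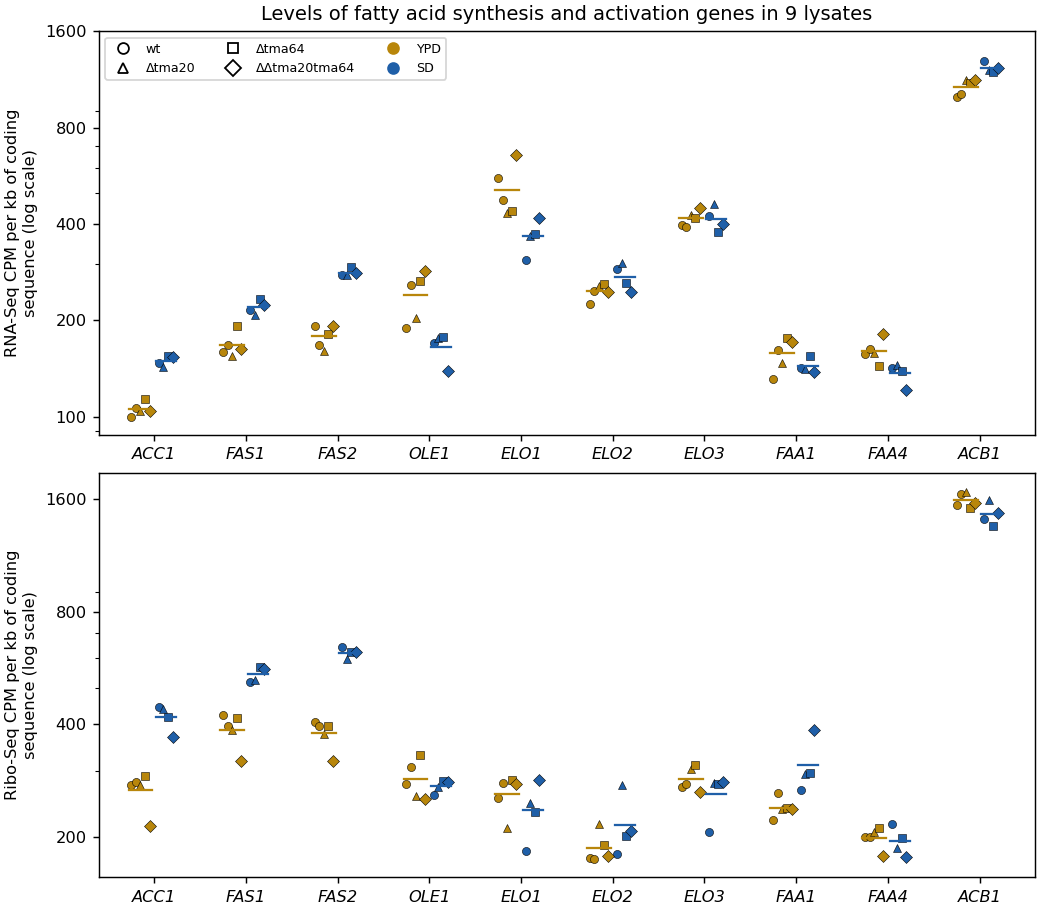
Level of each gene in CPM per kb of coding sequence on a log axis, in RNA-Seq (top) and Ribo-Seq (bottom), for 5 YPD lysates (ochre) and 4 SD lysates (blue), with the symbol giving the strain and the line the mean. ACC1, FAS1 and FAS2 separate the media in both assays, OLE1, ELO1 and ACB1 in RNA-Seq alone, and FAA1 in Ribo-Seq alone.

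The first comparison asked how the genes differ between minimal and rich medium. ACC1, FAS1 and FAS2, the enzymes that commit acetyl-CoA to fatty acids and build the chain, rose in SD at the level of both mRNA and footprints, by 1.31-fold to 1.67-fold. The mRNAs of OLE1 and ELO1, for the desaturase and the elongase of medium-length chains, fell in SD to 0.686 and 0.715 of their YPD level, while their footprints did not pass the test. Footprints of FAA1 rose 1.28-fold with no called change of its mRNA. In edgeR with an adjusted p under 0.05, 5 of the 10 mRNAs were called, 3 higher and 2 lower, where 26% of 5966 genes tested were called, 14.1% higher and 11.9% lower. In Ribo-Seq 4 of 10 were called, all higher, where 25.5% of 5369 genes were called, 14.3% higher and 11.3% lower. All 10 genes passed the filter on low counts in each comparison. The median log2 fold change of the 10 genes was 0.07 in each assay, against 0.004 in RNA-Seq and -0.0047 in Ribo-Seq over all genes tested.

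FAS2 showed the largest difference between media among the 10 genes in both assays. Its mRNA was at 1089.6 CPM in WT1, 950.3 in WT2, 909.8 in Δtma20, 1027 in Δtma64 and 1087 in ΔΔtma20tma64 in YPD. In SD it was at 1565 CPM (wt), 1566 (Δtma20), 1666 (Δtma64) and 1595 (ΔΔtma20tma64), the order in which all later values stand. Every SD lysate lay far above every YPD lysate, and the SD lysates differed little among themselves. The log2 fold change was 0.66 ± 0.089 (SE), with an adjusted p of 0.000659 in edgeR. Its footprints were at 2294, 2242, 2132, 2233 and 1807 CPM in the YPD lysates, in the same order of strains, and at 3637, 3376, 3524 and 3537 in the SD lysates. The groups again did not overlap, and the log2 fold change was 0.74 ± 0.074 (adjusted p = 5.05e-06).

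FAS1, for the other subunit, moved the same way by less. Its mRNA was at 982, 1031, 956, 1181 and 999 CPM in YPD and at 1325, 1280.0, 1438 and 1375 in SD (log2 fold change 0.39 ± 0.083, adjusted p = 0.00763). Its footprints were at 2602, 2427, 2371, 2550.4 and 1959 CPM in YPD and at 3193, 3237, 3506 and 3451 in SD (0.51 ± 0.082, adjusted p = 0.000508). The media did not overlap in either assay, and ΔΔtma20tma64 in YPD was the lowest lysate for the footprints of FAS1 and FAS2 alike.

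ACC1 encodes the carboxylase whose product limits the pathway. Its mRNA was at 669, 716, 698, 764 and 697 CPM in YPD and at 989, 957, 1040.4 and 1027 in SD (log2 fold change 0.50 ± 0.080, adjusted p = 0.00184). Its footprints were at 1841, 1880.3, 1838, 1944 and 1432 CPM in YPD and at 2983, 2936, 2808 and 2476 in SD (0.67 ± 0.070, adjusted p = 7.46e-06). Both assays separated the media without overlap. In each medium ΔΔtma20tma64 had the lowest ACC1 footprints, which its mRNA did not show.

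The calls of FAS2 mRNA and of ACC1, FAS1 and FAS2 footprints held under each of 17 other settings, which include leaving out each lysate and taking the lysates with or without TMA20 alone. Those of ACC1 and FAS1 mRNA held in 14. They did not pass without both lysates with shallow Ribo-Seq libraries (adjusted p = 0.0713 for ACC1 and 0.19 for FAS1), nor in the lysates with TMA20 alone (0.0609 and 0.172) or without TMA20 alone (0.0826 and 0.125), where the log2 fold changes of both genes lay between 0.35 and 0.50.

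The 10 genes together took 0.483% to 0.55% of the RNA-Seq counts on open reading frames in the YPD lysates and 0.622% to 0.648% in the SD lysates. Of the Ribo-Seq counts they took 0.769% to 0.902% in YPD and 1.19% to 1.36% in SD. ACC1, FAS1 and FAS2 made up most of this share, with 0.527% to 0.648% of footprints in YPD and 0.958% to 1.05% in SD. Neither share overlapped between the media. ACC1, FAS1 and FAS2 each separated the media by themselves in both assays, so this is no further evidence.

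**Figure D2:**
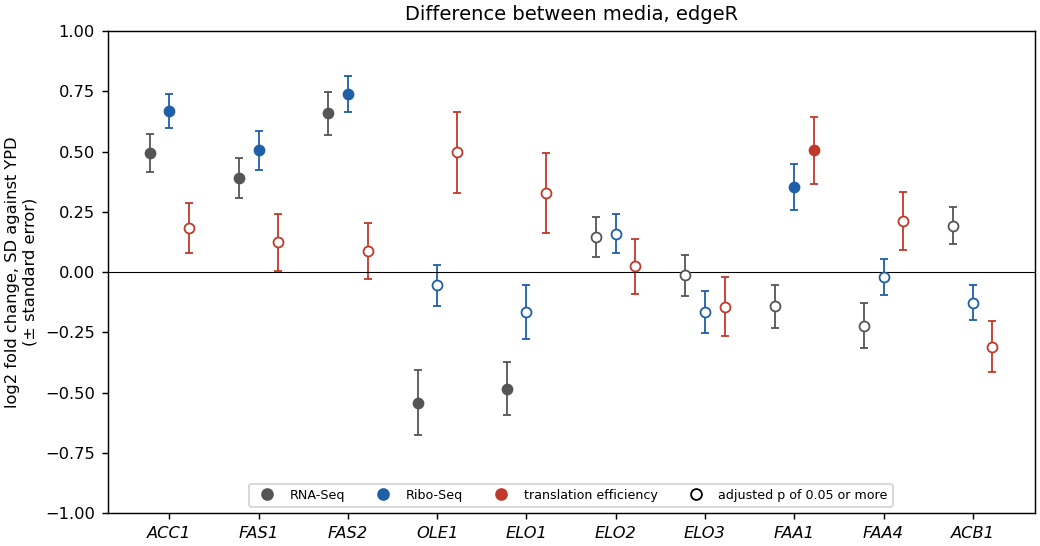
Log2 fold change of each gene in SD against YPD, with its standard error, for RNA-Seq (grey), Ribo-Seq (blue) and translation efficiency (red), with filled points for an adjusted p under 0.05 in edgeR. For ACC1, FAS1 and FAS2 both assays lie between 0.39 and 0.74, while OLE1 and ELO1 lie at -0.54 and -0.48 in RNA-Seq and nearer to 0 in Ribo-Seq.

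OLE1 mRNA was at 291, 395, 311, 408 and 437 CPM in YPD and at 260.1, 269.6, 273 and 214 in SD. The SD lysates were all below the YPD lysates, though wt in YPD ranged nearly as widely (WT1 at 291 and WT2 at 395) as the media differed. The log2 fold change was -0.54 ± 0.14 (adjusted p = 0.0159). It was -0.40 without ΔΔtma20tma64 in SD (adjusted p = 0.0583) and -0.40 without ΔΔtma20tma64 in YPD (adjusted p = 0.0595). With strain as covariate, either omission removes that strain from the comparison of media, so these fits repeat nearly the same check. The log2 fold change of OLE1 mRNA did not pass in the lysates with TMA20 alone (-0.47, adjusted p = 0.150) or without TMA20 alone (-0.63, adjusted p = 0.0569). Footprints of OLE1 overlapped between the media, at 424, 469.8, 395, 508 and 388 CPM in YPD and at 395, 415, 433 and 430.1 in SD, with a log2 fold change of -0.06 ± 0.085 (adjusted p = 0.675).

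ELO1 mRNA was at 519, 443, 405, 408 and 612 CPM in YPD and at 289, 343, 348 and 389.7 in SD, again without overlap. Its log2 fold change was -0.48 ± 0.11 (adjusted p = 0.011), and -0.38 without wt in SD (adjusted p = 0.0534). It did not pass either without both lysates with shallow Ribo-Seq libraries (-0.44, adjusted p = 0.116), in the lysates with TMA20 alone (-0.52, adjusted p = 0.127) or in those without TMA20 (-0.45, adjusted p = 0.119). ELO1 footprints were at 236, 261, 197, 264 and 259 CPM in YPD and at 171, 229, 218 and 264 in SD, which overlapped, with wt in SD lowest. Their log2 fold change was -0.17 ± 0.11 over all lysates (adjusted p = 0.307), -0.41 in the lysates with TMA20 (adjusted p = 0.0364) and 0.12 in those without (adjusted p = 0.548). Reads on the strand opposite to ELO1 amounted to 2.24% of the RNA-Seq counts of both strands in YPD and 2.96% in SD. The main comparisons count the gene's strand alone, so these reads are not part of the ELO1 levels. Whether they bear on the ELO1 mRNA was not tested.

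The other elongases, which make the longer chains, were not called in either assay. ELO2 mRNA ranged from 235 to 271 CPM in YPD and from 255 to 314 in SD (log2 fold change 0.15 ± 0.083, adjusted p = 0.222), and its footprints from 182 to 225 and from 187 to 287 (0.16 ± 0.080, adjusted p = 0.161). ELO3 mRNA ranged from 406 to 464 CPM in YPD and from 391 to 479 in SD (-0.01 ± 0.084, adjusted p = 0.924), and its footprints from 273 to 322 and from 214 to 291 (-0.17 ± 0.088, adjusted p = 0.187). The lowest ELO3 footprint level, 214 CPM, was that of wt in SD, and the other SD lysates lay at 288 to 291.

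FAA1, the main synthetase for imported fatty acids, was called in Ribo-Seq. Its footprints were at 466, 549, 499.98, 502 and 498 CPM in YPD and at 561, 618, 621 and 814 in SD. The groups did not overlap, WT2 in YPD lay close to wt in SD, and ΔΔtma20tma64 in SD stood highest. The log2 fold change was 0.35 ± 0.096 (adjusted p = 0.0155). The log2 fold change fell to 0.24 without ΔΔtma20tma64 in YPD (adjusted p = 0.0863) or in SD (0.0799), and was 0.23 in the lysates with TMA20 alone (0.231). Without Δtma20 in YPD or in SD it was 0.36 with adjusted p-values of 0.0597 and 0.0564. With strain as covariate, leaving out either lysate of a deletion strain repeats nearly the same check. FAA1 mRNA was at 276, 339.9, 310.3, 370.0 and 361 CPM in YPD and at 299.6, 297, 326 and 290.3 in SD, which overlapped (-0.14 ± 0.090, adjusted p = 0.272). Reads opposite to FAA1 made up 2.05% of the RNA-Seq counts of both strands in YPD and 0.603% in SD.

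FAA4, whose enzyme shares much of its function with Faa1, did not follow it. FAA4 mRNA ranged from 299 to 378 CPM in YPD and from 253 to 303 in SD (log2 fold change -0.22 ± 0.094, adjusted p = 0.111), and its footprints from 371 to 440.4 and from 367 to 449.8 (-0.02 ± 0.075, adjusted p = 0.873). For the acyl-CoA carrier ACB1, mRNA was at 263, 269.9, 297, 291 and 298 CPM in YPD and at 339.9, 320.0, 316 and 325 in SD. The SD lysates were all above the YPD lysates, yet the difference did not pass the test (0.19 ± 0.077, adjusted p = 0.0948). ACB1 footprints were at 407, 437, 442, 399 and 413 CPM in YPD and at 374, 420.0, 358 and 388 in SD (-0.13 ± 0.073, adjusted p = 0.224). Counting ACB1, 6 of the 10 mRNAs did not overlap between the media, as did 25% of all genes tested, and 4 of 10 in Ribo-Seq, as did 19.4% of all genes.

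The second comparison asked whether footprints and mRNA of a gene moved by different amounts, which is a change of translation efficiency. FAA1 rose and no other gene of the 10 was called, where 7.45% of 5935 genes tested were called, 5.04% higher and 2.41% lower. FAA1 had a translation efficiency of 1.69, 1.62, 1.61, 1.36 and 1.38 in YPD and of 1.87, 2.08, 1.91 and 2.80 in SD. All SD lysates were above all YPD lysates, with a log2 fold change of 0.50 ± 0.14 (adjusted p = 0.0352). The call was lost when any of 7 of the 9 lysates was left out, all but WT1 and wt in SD. Adjusted p-values ran from 0.0187 to 0.224 over the 9 fits, and the log2 fold change from 0.31 to 0.65. With strain as covariate, leaving out either lysate of a deletion strain removes that strain from the comparison of media. The 7 losses are therefore not separate checks.

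OLE1 had a translation efficiency of 1.46, 1.19, 1.27, 1.24 and 0.887 in YPD and of 1.52, 1.54, 1.59 and 2.01 in SD. The groups did not overlap, and ΔΔtma20tma64 gave both the lowest and the highest value. The log2 fold change of 0.50 ± 0.17 had an adjusted p of 0.0812, so the fall of OLE1 mRNA without a called fall of its footprints was not itself a called difference. With the lysate as a block that pairs both assays, OLE1 passed (adjusted p = 0.0396), as it did without WT1. The log2 fold change of ELO1 was 0.33 ± 0.17 (adjusted p = 0.25). Its translation efficiency was 0.456, 0.588, 0.486, 0.647 and 0.423 in YPD and 0.591, 0.668, 0.626 and 0.678 in SD, and overlapped.

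ACB1 went the other way. Its translation efficiency was 1.55, 1.62, 1.49, 1.37 and 1.39 in YPD and 1.10, 1.31, 1.13 and 1.19 in SD, without overlap (log2 fold change -0.31 ± 0.11, adjusted p = 0.0833 in edgeR and 0.0124 in DESeq2). Together 3 of the 10 genes did not overlap between the media in translation efficiency, where 11.9% of all genes did not. The log2 fold changes of ACC1 (0.18 ± 0.10), FAS1 (0.12 ± 0.12) and FAS2 (0.09 ± 0.12) did not pass, so a change of their footprints beyond that of their mRNA was not detected. FAA4 (0.21 ± 0.12), ELO2 (0.02 ± 0.11) and ELO3 (-0.14 ± 0.12) did not pass either.

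**Figure D3:**
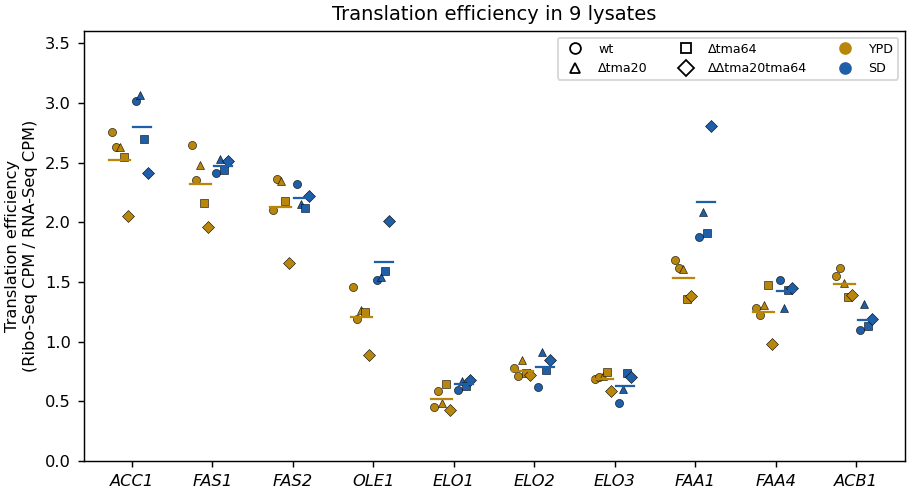
Translation efficiency, the ratio of Ribo-Seq CPM to RNA-Seq CPM, of each gene in 5 YPD lysates (ochre) and 4 SD lysates (blue), with the symbol giving the strain and the line the mean. OLE1 and FAA1 lie higher in SD and ACB1 lower without overlap, and ΔΔtma20tma64 in SD is the highest lysate for OLE1 (2.01) and FAA1 (2.80).

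Fas1 and Fas2 assemble in equal number, so the balance of their genes was compared as the ratio of FAS1 to FAS2 counts per kb of coding sequence. In Ribo-Seq the ratio was 1.04 in WT1, 0.996 in WT2, 1.02 in Δtma20, 1.05 in Δtma64 and 0.997 in ΔΔtma20tma64 in YPD, which is close to 1. In SD it was 0.808, 0.882, 0.915 and 0.898. Every SD lysate lay below every YPD lysate, with means of 0.876 ± 0.047 (SD, n = 4) and 1.02 ± 0.025 (n = 5). The exact two-sided permutation test over all splits of the lysates gave p = 0.00794, the smallest it can give, and 0.0476 after Benjamini-Hochberg adjustment over the 6 ratio tests. These splits took no account of strain, although every strain was grown in both media. Splits that keep each strain in both media are fewer, so the smallest p they could give is larger. In RNA-Seq the ratio was 0.8289, 0.999, 0.967, 1.06 and 0.845 in YPD and 0.779, 0.752, 0.794 and 0.793 in SD. The media did not overlap here either, with means of 0.940 ± 0.099 and 0.780 ± 0.020, but WT1 and ΔΔtma20tma64 in YPD came near the SD lysates (exact permutation p = 0.0238, adjusted 0.0714). Since no SD lysate reached a YPD lysate in either assay, the lysates with TMA20 or without TMA20 alone cannot overlap either. Such a split is therefore no separate test. For loss of TMA20 or TMA64 the exact p of the ratio was between 0.524 and 0.944.

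**Figure D4:**
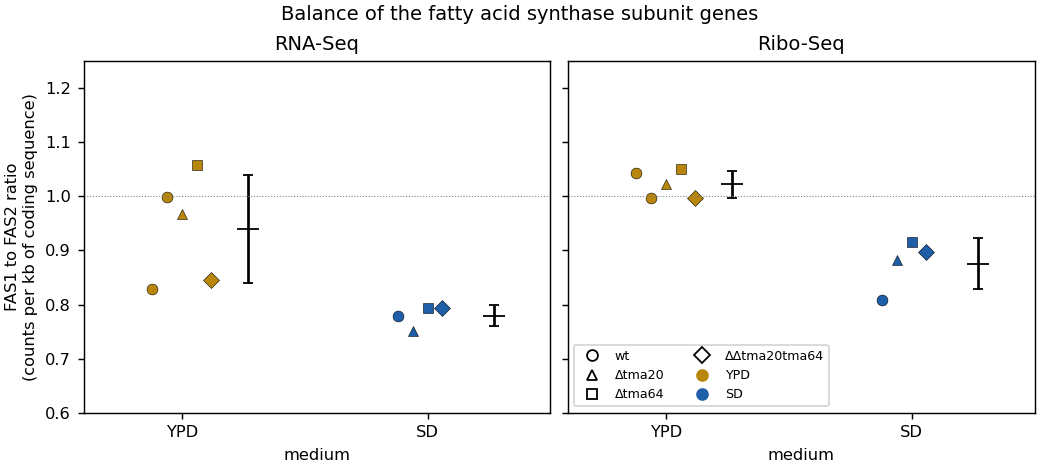
Ratio of FAS1 to FAS2 counts per kb of coding sequence in each lysate, for RNA-Seq (left) and Ribo-Seq (right) in YPD and SD, with the symbol giving the strain and the bar the mean ± SD (the axis does not start at 0, and the dotted line marks equal levels). In Ribo-Seq the YPD lysates sit between 0.996 and 1.05 and the SD lysates between 0.808 and 0.915.

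The third comparison asked whether loss of either translation factor changed the genes. None of the 10 genes was called for loss of TMA20 (4 lysates against 5, both media), in RNA-Seq, Ribo-Seq or translation efficiency, by edgeR or by DESeq2, where 0.0838%, 3.95% and 0.0674% of all genes tested were called in edgeR. At an unadjusted p under 0.05 the 10 genes gave 0, 1 and 0, where 10.1%, 18.6% and 7.06% of all genes passed. Log2 fold changes of mRNA ranged from -0.10 (FAS1) to 0.15 (ELO1) and those of footprints from -0.15 (ACC1) to 0.22 (ELO2), with standard errors of 0.071 to 0.13. ELO2 footprints, the gene with the unadjusted p under 0.05 (adjusted p = 0.263), were at 225 CPM in Δtma20 in YPD and 287 in Δtma20 in SD, above the other lysates of each medium, while ΔΔtma20tma64 lay at 186 and 216. The synthase subunits were at -0.12 ± 0.084 (FAS1) and -0.13 ± 0.074 (FAS2) in Ribo-Seq.

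For loss of TMA64 none of the 10 genes was called in RNA-Seq, Ribo-Seq or translation efficiency by either tool, where 0.0168%, 0.0559% and 0.0168% of all genes were called in edgeR. At an unadjusted p under 0.05 the 10 genes gave 0, 0 and 1, where 2.23%, 5.22% and 2.26% of all genes passed. The 1 was the translation efficiency of ACC1 (log2 fold change -0.23 ± 0.11, adjusted p = 1). Log2 fold changes of footprints ranged from -0.14 (ACC1) to 0.22 (ELO1) and those of mRNA from -0.07 (ELO2) to 0.17 (ELO1). The groups with and without a factor overlapped for each of the 10 genes in all 3 measures. Each such group holds lysates of both media, so a gene whose media do not overlap must overlap here. The share of all genes with overlapping groups was not computed, and the overlap says little about either factor.

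The effect of TMA20 loss was also compared between the media as an interaction. None of the 10 genes was called in any measure by edgeR or DESeq2, where 0% of genes in RNA-Seq, 0.112% in Ribo-Seq and 0% in translation efficiency were called in edgeR. At an unadjusted p under 0.05 the 10 genes gave 0, 1 and 0, where 2.18%, 5.31% and 1.95% of all genes passed. ELO1 footprints had the largest term, 0.56 ± 0.18 on the log2 scale (adjusted p = 0.501 in edgeR). Both SD lysates without TMA20 had ELO1 footprints at 229 and 264 CPM and those with it at 171 and 218, whereas in YPD the lysates without TMA20 had 197 and 259 and those with it 236, 261 and 264. The groups did not overlap in SD, with only 2 lysates on each side, and overlapped in YPD. The share of all genes apart in SD was not computed. ELO1 was picked here for its large term, so the separation in SD is no further evidence.

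**Figure D5:**
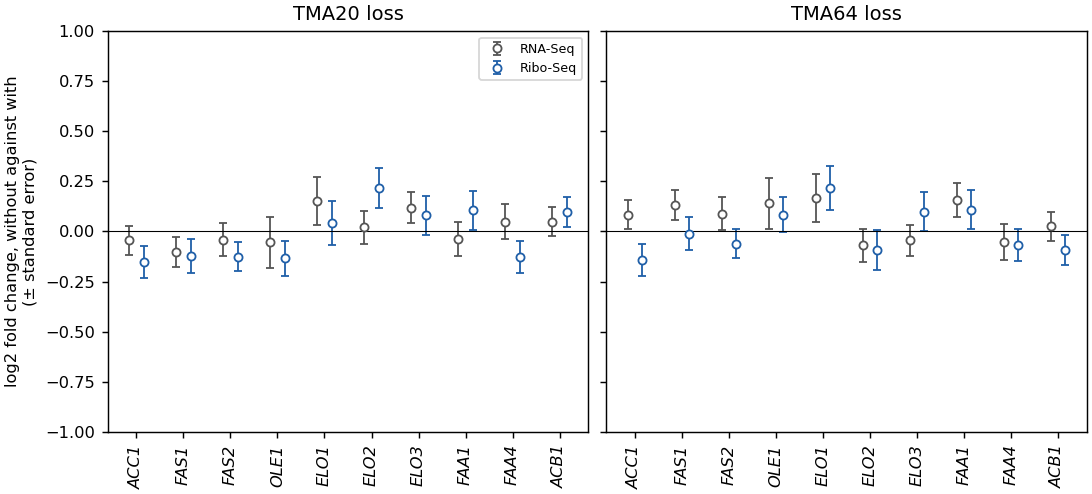
Log2 fold change of each gene, with its standard error, for loss of TMA20 (left) and loss of TMA64 (right) over both media, in RNA-Seq (grey) and Ribo-Seq (blue). No point passed an adjusted p of 0.05 in edgeR, and all lie between -0.15 and 0.22.

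Genes around the pathway were described in 6 lists of 55 genes. Their counts stand against the shares of all genes called between the media, which were 14.1% higher and 11.9% lower for mRNA, 14.3% and 11.3% for footprints and 5.04% and 2.41% for translation efficiency. Among 11 regulators, 3 mRNAs rose in SD and none fell (median log2 fold change -0.04). They were those of OPI1, the repressor of inositol-responsive genes (0.74 ± 0.089, adjusted p = 0.000334), and of its counterparts, the activators INO4 (0.64 ± 0.087) and INO2 (0.58 ± 0.18). In Ribo-Seq OPI1 (1.196 ± 0.099) and INO4 (0.97 ± 0.14) rose and SNF4, a subunit of the Snf1 kinase that phosphorylates Acc1, fell (-0.25 ± 0.086), with a median of -0.07. OPI1 rose (0.47 ± 0.14) and SNF4 fell (-0.36 ± 0.11) in translation efficiency.

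Of 6 partners of the elongation cycle and membrane synthetases, the mRNAs of FAA3, a further acyl-CoA synthetase (-0.45 ± 0.11), and FAT1, which imports and activates fatty acids (-0.37 ± 0.079), fell, with a median over the list of -0.12. In Ribo-Seq the call was PHS1, the dehydratase of the elongation cycle, which fell (-0.44 ± 0.096, median -0.11). In translation efficiency FAA3 rose (0.66 ± 0.16) and PHS1 fell (-0.56 ± 0.12). Of 4 genes of acetyl-CoA and biotin metabolism, ACS1, an acetyl-CoA synthetase repressed by glucose, rose in Ribo-Seq (1.56 ± 0.28) and in translation efficiency (1.64 ± 0.29). No mRNA of the 4 was called in edgeR (median -0.18). Of 7 genes of the separate mitochondrial synthase, 1 mRNA rose and 2 fell (median -0.06), and 3 footprint levels fell, among them those of CEM1, its condensing enzyme (-1.33 ± 0.13 for mRNA, -0.92 ± 0.12 for footprints), and MCT1, its malonyl transferase (-0.63 ± 0.095 and -0.80 ± 0.11). None of the 7 was called in translation efficiency. Over all genes 14.1% of mRNAs were called higher and 11.9% lower, and 14.3% and 11.3% of footprint levels.

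Of 12 genes of beta-oxidation, the breakdown of fatty acids in peroxisomes, 1 mRNA rose, SPS19 (0.49 ± 0.14), and 2 of the 11 tested in Ribo-Seq rose, POT1 (1.92 ± 0.60) and SPS19 (0.77 ± 0.15), with medians of -0.02 and 0.20. Of 15 genes of glycerolipid, sterol ester and sphingolipid synthesis, 1 mRNA rose and 4 fell (median -0.16). The largest falls were in ARE1, which makes sterol esters (-0.55 ± 0.13), and LAC1, a ceramide synthase (-0.37 ± 0.10). In Ribo-Seq 2 rose and 2 fell (median -0.01), with the largest differences in ARE2, the other sterol acyltransferase (0.38 ± 0.080), and AYR1 (-0.29 ± 0.092). These counts compare with 14.1% of all genes called higher and 11.9% lower for mRNA, and 14.3% and 11.3% for footprints. No gene of the 6 lists was called for loss of TMA20 or of TMA64 or for the interaction of TMA20 loss with the medium, in edgeR.

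As a description, genes were ranked by the Pearson correlation of their log2 CPM in Ribo-Seq with FAS1 and OLE1 over the 9 lysates, among 4896 genes. FAS1 was most like RGD2 (0.98), MDH2 (0.97) and YHR138C (0.96) outside the pathway, and its correlation was 0.97 with FAS2 and 0.94 with ACC1 within it. OLE1 was most like CRM1 (0.96), UBP6 (0.95) and SEC10 (0.90), and its correlation with FAS1 was 0.06. The lysates behind each value share the media and each library's depth.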

How the data were processed

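The authors trimmed reads with cutadapt 1.18, aligned them to the R64-1-1 assembly with its Ensembl annotation and, with STAR 2.5.3a, counted reads with a single alignment on each gene. The deposited values are raw counts per gene. Counts on the gene's strand were used, and rows without a gene, such as reads on no feature (median 23.6% in RNA-Seq and 1.09% in Ribo-Seq), were not used. RNA-Seq libraries held a median of 9789698 counts and Ribo-Seq libraries 6589096. Genes were filtered with filterByExpr (minimum count 10) and compared with edgeR 4.0.16 (TMM, robust quasi-likelihood test, Benjamini-Hochberg adjustment over the genes tested, threshold 0.05) in R 4.3.3. The medium was tested with strain as covariate, each deletion with the other deletion and medium, and translation efficiency as the interaction with assay over 18 libraries. Standard errors were derived from the F statistic. CPM values were scaled by the TMM effective library size. DESeq2 1.42.0 and the other settings are alternatives. The FAS1 to FAS2 ratio was compared by exact permutation without strain as covariate. The scripts were tested on simulated data. Coordinates and upstream sequence are from RefSeq R64, in which 6013 of 6713 open reading frames were found.

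The 10 genes and the 6 lists were chosen with earlier results of these data known. All 10 genes are named, with TMA20 and TMA64 as label checks, and from each list up to 2 called genes with the largest change per comparison and measure, INO2 being added after its value was seen. SNF4 is named by this rule in translation efficiency. Its Ribo-Seq value is given as well, although it ranked 3 among the called regulators there. Both assays of a lysate come from 1 culture according to the study's methods. Correlations of their deviations from the strain and medium means were highest in ΔΔtma20tma64 (0.314) and WT2 (0.311), then Δtma64 (0.132), Δtma20 (0.126), the wt lysate in SD (0.055) and WT1 (0.013), and another lysate correlated better for WT1, Δtma20 in YPD and Δtma64, so the pairs rest on the methods.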

Additional observations from a re-analysis of the deposited data

Results flagged for a closer look

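Among 40 groups of lysates tested for a value far from the others, 2 had one, where chance gives about 1 in 20. ACC1 footprints in YPD were at 1432 CPM in ΔΔtma20tma64 and at 1838 to 1944 in the other 4 lysates. ELO3 footprints in SD were at 214 CPM in wt and at 288 to 291 in the other 3. Counts on the opposite strand enter no main comparison, but an alternative setting that counts both strands includes them. In RNA-Seq they amounted to 2.24% of both strands at ELO1 in YPD, 2.96% at ELO1 in SD and 2.05% at FAA1 in YPD. They were 0.603% at FAA1 in SD and under 1% of the pooled counts at the other 8 genes.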

How the results depend on the processing

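No gene of the 10 was called for TMA20 loss, TMA64 loss or the interaction under any setting tried. In Ribo-Seq the calls for ACC1, FAS1 and FAS2 between the media were kept under all settings tried, while FAA1 was lost without a Δtma20 or a ΔΔtma20tma64 lysate (3 to 4 calls when 1 lysate was left out) and, with TMA20 alone, was replaced by a lower call of ELO1. The 5 calls in RNA-Seq (4 to 5 without 1 lysate) became 2 without both lysates that had shallow Ribo-Seq libraries, 1 in the lysates with TMA20 alone and 1 in those without TMA20 alone, where fewer lysates enter. The 1 call in translation efficiency became 2 with DESeq2 and 0 without both shallow lysates, 0 with TMA20 alone, 0 without TMA20 alone and 0 to 2 when 1 lysate was left out. With the lysate as a replicate block it became 2, as OLE1 joined FAA1, and the block changed no other call of the 10 genes. Over all genes, calls in translation efficiency were 299 higher and 143 lower, 64 and 11 without both shallow lysates, 46 and 10 with TMA20 alone, 139 and 32 without TMA20 alone. In RNA-Seq they were 842 and 707, 326 and 280 without both shallow lysates, 161 and 132 with TMA20 alone and 405 and 326 without TMA20 alone. For Ribo-Seq they were 766 and 605, 420 and 261 without both shallow lysates, 545 and 328 with TMA20 alone and 515 and 340 without TMA20 alone. Without 1 lysate these calls totalled 848 to 1975 in RNA-Seq, 943 to 1291 in Ribo-Seq and 141 to 558 in translation efficiency. The calls over all genes for TMA20 loss went from 5 to 52 with DESeq2, 583 in SD alone, 1 in YPD alone and 3 to 11 without 1 lysate in RNA-Seq, from 212 to 108 without both shallow lysates, 42 in YPD alone and 56 to 271 without 1 lysate in Ribo-Seq, and from 4 to 14 with DESeq2, 0 without both shallow lysates, 0 in YPD alone and 0 to 7 without 1 lysate in translation efficiency. For TMA64 loss they went from 1 to 293 in SD alone in RNA-Seq, and from 3 to 193 in SD alone and 6 with DESeq2 in Ribo-Seq. The interaction in Ribo-Seq went from 6 to 16 with DESeq2, to 0 when Δtma64 in SD or either YPD lysate without TMA20 was left out, and to 46 without Δtma64 in YPD.

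Signs turned under at least 1 setting, in RNA-Seq, Ribo-Seq and translation efficiency, for 1, 3 and 3 of the 10 genes between the media, 6, 5 and 7 for TMA20 loss, 5, 4 and 6 for TMA64 loss and 7, 2 and 3 for the interaction. No turned value was called, and they lay between -0.21 and 0.22. For SD against YPD in lysates without TMA20 alone, OLE1 and ELO1 footprints were at 0.11 and 0.12 and the translation efficiency of ELO3 at 0.032. With TMA20 alone, FAA4 footprints were at 0.034 and the translation efficiency of ELO2 at -0.12, and without both shallow lysates that of ELO3 at 0.13. Leaving out 1 lysate gave -0.072 to 0.030 for ELO3 mRNA, -0.079 to 0.010 for FAA4 footprints, and in translation efficiency -0.050 to 0.14 for FAS2, -0.077 to 0.15 for ELO2 and -0.30 to 0.016 for ELO3. For TMA20 loss, footprints in SD alone were at 0.0089 for FAS1 and 0.038 for OLE1. In YPD alone they were at -0.21 for ELO1, -0.013 for ELO3 and -0.019 for FAA1, and without both shallow lysates at -0.053 for ELO1 and -0.0019 for ELO3. Leaving out 1 lysate gave -0.033 to 0.18 for ELO1 and -0.00093 to 0.19 for ELO3. The log2 ratio of FAS1 to FAS2 ranged from -0.085 to 0.065 (RNA-Seq, TMA64), -0.076 to 0.020 (Ribo-Seq, TMA20) and -0.031 to 0.061 (Ribo-Seq, TMA64). The cause was not tested.

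Depth limits the SD footprints of wt and Δtma20 most. With 1 lysate per strain and medium, a culture's own deviation cannot be told apart from its strain.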
